A study of Taeniopygia guttata with 134 samples.

Results

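Gene expression in NST, the bed nucleus of the stria terminalis, was compared between male zebra finches (Taeniopygia guttata) that stayed with a female they knew (KFC) and males that rejoined a female they knew (KF). All NST libraries of these settings were taken, 22 of the 134 libraries of the series, each from a separate male going by the numbers in the labels. KFC held 5 males given LPS (lipopolysaccharide, a bacterial endotoxin that provokes inflammation and sickness) and 5 given a control injection, and KF held 6 and 6. Males kept alone (ISO) or placed with an unfamiliar female (NF), with 12 NST libraries each, and the hypothalamus (HY) and nucleus taeniae (TN) of the KFC and KF males served for comparison. The NST libraries of ISO and of NF each came from 6 LPS and 6 control males. Every male in the series had received an injection, so no group was untreated. The sources used here give no strain, age, dose or time between injection, social setting and dissection, and each library held polyadenylated RNA of a whole dissected region.

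The bed nucleus belongs to the extended amygdala and is a node of the network of forebrain regions that handle social behaviour in vertebrates. In zebra finches, which form lasting pairs, it holds vasotocin neurons that are known for their part in affiliation. LPS is used to induce sickness behaviour, which social context can alter in this species. The identifiers of the count table could not be paired with gene names in the table of genes used here. For that reason single genes are given by identifier, nothing can be said of their function, and markers of the bed nucleus or of other cell types could not be read. All 22 libraries correlated most with the median profile of NST among those of the 3 regions. Total counts in NST ran from 8978142 to 11760798 in KFC and from 7981242 to 10804225 in KF. KFC libraries were deeper, with a mean of 10297776 against 9139083 (2-sided permutation test, 100000 resamples, p = 0.00511). KFC males carry the numbers 62 to 71 and KF males 30 to 48, so the order in which males were handled, as far as a number shows it, cannot be told apart from the setting. The NF libraries of males 3 and 4, which enter the fit as part of its 8 groups, were closer to another region's median than to that of NST.

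Averaged over both injections, 64 genes were higher and 4 were lower in KFC than in KF among 14386 tested (edgeR quasi-likelihood test, threshold 0.05 on the p adjusted after Benjamini and Hochberg). That is 0.473% of genes called, 0.445% higher and 0.0278% lower. Most differences were small. On the log2 scale the 64 higher genes differed by 0.25 to 3.54, with a median of 0.47, and 34 of them differed by less than 0.5. The 4 lower genes differed by -1.50 to -0.27. The median difference over all tested genes was -0.01. Adjusted p-values of the 68 genes lay between 0.0199 and 0.0492, so all were close to the threshold, and 1279 genes had an unadjusted p under 0.05. In bulk RNA, fewer cells of a type and less RNA per cell cannot be told apart.

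The call depended on single libraries. Without control KFC male 62 no gene passed (lowest adjusted p 0.0521), and without control KF males 31 or 34 only 6 or 7 genes did. The count was 30 to 32 without KFC males 70 or 71 or KF male 44, and 39 to 45 without KFC males 64, 67 or 69 or KF males 30, 32, 33, 35 or 36. Without KF male 48 it was 117. The median log2 difference of the 64 genes lay between 0.42 and 0.50 over the 22 omissions. Each omission kept all the other libraries that chose these genes, so a steady median is largely built in.

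**Figure D1:**
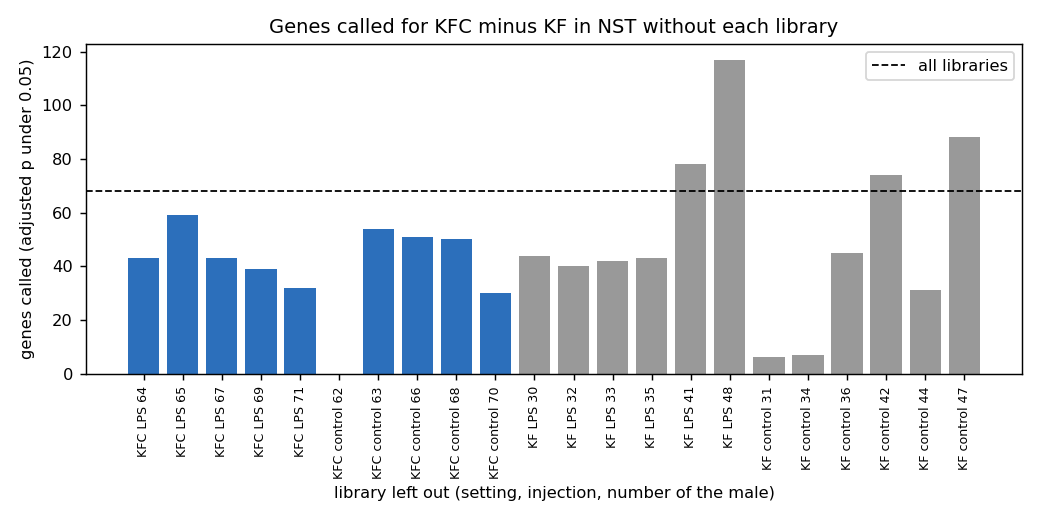
Number of genes called for KFC minus KF in NST (edgeR, adjusted p under 0.05) when the library named on the horizontal axis is left out, with KFC libraries in blue and KF libraries in grey. The dashed line marks the 68 genes called with all libraries, and the count runs from 0 without control KFC male 62 to 117 without LPS KF male 48.

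Within each injection the same contrast gave no call. In control males 0 of 14386 genes passed with edgeR, 606 had an unadjusted p under 0.05, and DESeq2 called 15. In LPS males the numbers were 0, 1130 and 15. No gene's difference depended detectably on the injection, with 0 interaction calls by edgeR or by DESeq2 and 434 genes with an unadjusted p under 0.05. Over the 64 genes the median log2 difference was 0.41 in control males and 0.55 in LPS males. These are the libraries that chose the genes, so the values are a description.

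ENSTGUG00000008689 had the lowest p among the higher genes. Its level, in CPM, counts scaled to library size with TMM factors, was 163, 165, 170, 136 and 174 in the control KFC males and 161, 161, 181, 184 and 184 in the LPS KFC males. In KF it ran from 84.0 to 134, with a median of 122. Every KFC library lay above every KF library. The means were 168 ± 14.5 (SD, n = 10) and 118 ± 15.1 (SD, n = 12), a log2 difference of 0.51 (SE 0.09, edgeR adjusted p = 0.0199). ISO and NF males lay between, at 137 ± 23.5 (SD, n = 12) and 130 ± 19.6 (SD, n = 12), and overlapped both. Such complete separation with KFC above KF was found for 5 of the 64 genes and for the same number, 5, of all 14386 (0.0348%). In HY and TN the log2 difference of ENSTGUG00000008689 was -0.10 and 0.09, neither past the test. The KF libraries of HY reached 371 CPM, and the medians there were 134 in KFC and 118 in KF. The sign of the HY difference was therefore not that of the medians.

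ENSTGUG00000006149 ran from 69.4 to 90.4 CPM in KFC, with a median of 74.0. In KF it ran from 41.95 to 71.9, with a median of 54.9. Of the KF libraries only that of control male 47, at 71.9, lay above the lowest KFC library. The log2 difference was 0.46 (SE 0.09, edgeR adjusted p = 0.0199), with 0.43 in control and 0.49 in LPS males. ISO and NF means, 63.5 ± 10.3 and 61.9 ± 8.23 CPM (SD, n = 12 each), lay between those of KFC and KF. This gene and ENSTGUG00000008689 were chosen as high in KFC and low in KF, which favours such a place for other groups. Neither gene passed for KFC or KF against ISO or NF (edgeR).

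ENSTGUG00000018571 was the gene of lowest p among those lower in KFC. It ran from 2.003 to 4.34 CPM in KFC, with a median of 3.14, and from 3.60 to 15.5 in KF, with a median of 8.46. All KFC libraries were low, the KF libraries were widely spread, and the groups overlapped at the bottom of the KF range. Low levels were not particular to KFC. In NST, ISO males ran from 1.06 to 18.04 CPM (median 4.60) and NF males from 1.92 to 15.8 (median 5.95). ISO and NF males numbered 50 to 59 held 1.92 to 4.98 CPM, and those numbered 3 to 39 held 1.06 to 18.04. The part of the male's number, parted at 50 after the values were seen, was not tested. TN medians were 3.27 in KFC and 2.99 in KF, and HY medians 9.29 and 8.64. The log2 difference of KFC minus KF in NST was -1.50 (SE 0.33, edgeR adjusted p = 0.0254), with -1.58 in control and -1.43 in LPS males. It passed in 17 of the 22 single-library omissions. With the level of the 12 genes that were more than 2-fold higher in KFC as a covariate, its log2 difference was -0.81. It then no longer passed (edgeR adjusted p = 0.623). That covariate ran close to the setting, so this loss cannot be read. ENSTGUG00000006485 ran from 26.1 to 39.01 CPM in KFC and from 32.1 to 49.1 in KF, a log2 difference of -0.33 (SE 0.08, edgeR adjusted p = 0.0295). Its groups overlapped widely and it passed in 12 of 22 omissions.

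**Figure D2:**
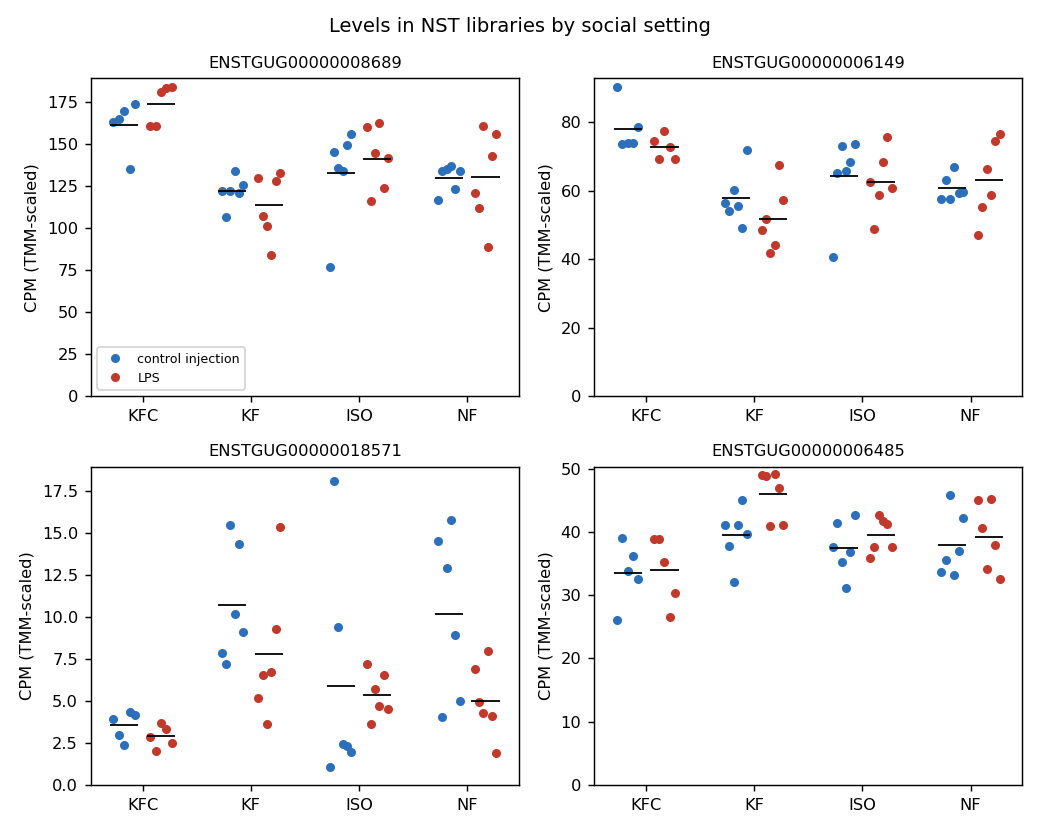
Level in CPM (TMM-scaled, vertical axes from 0) of 4 genes in every NST library, by social setting on the horizontal axis, with control males in blue, LPS males in red and group means as lines. In the upper panels KFC lies above KF, with no overlap for ENSTGUG00000008689, and in the lower panels KFC lies below KF with overlap.

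The 64 higher genes were parted by size. A set of 12 differed more than 2-fold, with log2 differences of 1.10 to 3.54 (median 2.18), and the other 52 by 0.25 to 0.99 (median 0.40). The parting at 2-fold was made after the values were seen, and the differences of 0.99 and 1.10 on its 2 sides lie close together. The 12 genes included 3 of very high level, with KFC means of 14004, 12924 and 8620 CPM against KF means of 1946, 1757 and 1132. Their log2 differences were 3.54, 3.44 and 3.45 (SE 0.81, 0.76 and 0.76; edgeR adjusted p = 0.0302, 0.0254 and 0.0254).

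Reads in the 12 genes made up a high or a low share of a library, with little between. The share was summed from the TMM-scaled CPM of each region's own fit and written as percent. It is therefore not the plain proportion of a library's reads. In the control KFC males 62, 63, 66, 68 and 70 the share was 5.64%, 3.56%, 4.49%, 4.93% and 4.76%. In the LPS KFC males 64, 65, 67, 69 and 71 it was 2.33%, 4.22%, 2.70%, 2.12% and 4.84%. All 10 KFC libraries were therefore high. The 6 control KF males held 0.121% to 0.242%, and 4 of the 6 LPS KF males held 0.117% to 0.225%. The other LPS KF males, 33 and 35, held 2.35% and 2.83%, within the KFC range. The mean share was 3.96 ± 1.22% (SD, n = 10) in KFC and 0.574 ± 0.949% (SD, n = 12) in KF. Most of it lay in the 3 genes of very high level, with means of 3.55% in KFC and 0.484% in KF. Within groups these 3 genes correlated with each other at a median of 0.996 over the 22 libraries. The share is therefore mostly a value of 3 genes. The 12 genes had a median log2 difference of 3.08 in control males and 1.28 in LPS males, where KF males 33 and 35 belong. None of the 12 passed the interaction test, and 3 of them had an unadjusted p under 0.05.

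High libraries were not particular to KFC. A share of at least 0.5%, a limit set after the values were seen, was found in 6 of 12 ISO and 5 of 12 NF libraries of NST. No NST library lay between 0.256% and 0.833%, and 23 of 46 lay above that gap. In TN all 43 libraries lay above 0.5%, from 0.554% to 5.07%. The lowest, of LPS KF male 32, lay within the gap seen in NST, so its place depends on where the limit was set. In HY 42 of 45 libraries held 0.0861% to 0.287%, and the other 3, of ISO males 5 and 8 and KFC male 67, held 3.77% to 4.26%. Among ISO and NF males the share also moved with the male's number, parted at 50 after the values were seen. It was at least 0.5% in 6 of 7 males numbered 50 to 59 and in 5 of 17 numbered 3 to 39, with median total counts of 10296447 and 9056748. The part of number and depth in the KFC values was not tested.

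**Figure D3:**
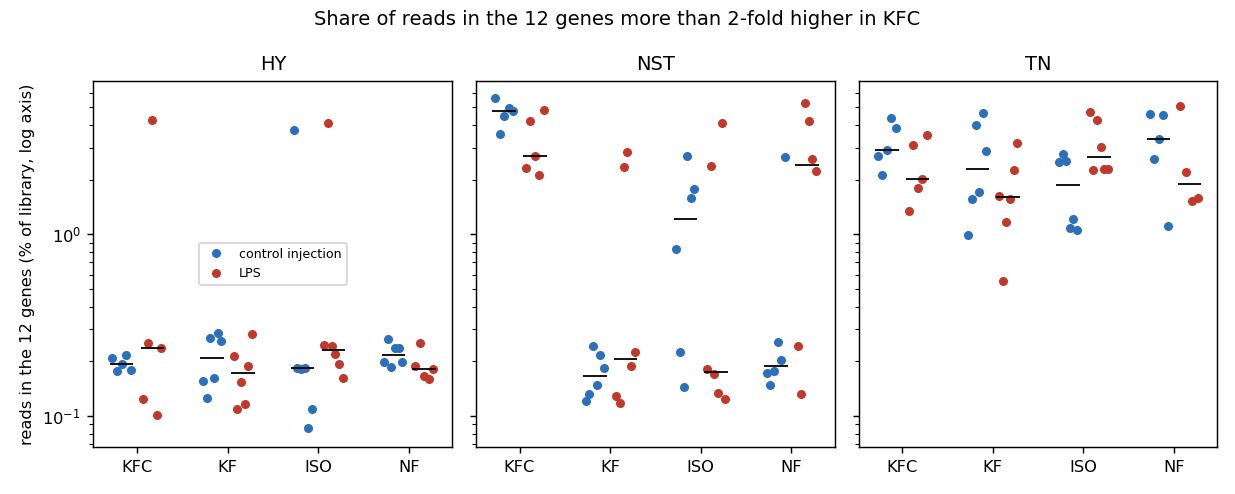
Share of each library's reads in the 12 genes more than 2-fold higher in KFC (summed TMM-scaled CPM as percent, log axis). Libraries are parted by region and social setting, with control males in blue, LPS males in red and group medians as lines. Most of the share lies in 3 of the 12 genes. NST libraries split into a high and a low set, all KFC libraries are in the high set with 10 of 12 KF libraries in the low one, and TN libraries are high in all settings.

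With the level of the 12 genes as a covariate, an alternative chosen after the data were seen, 61 genes passed, 57 higher and 4 lower in KFC. None of the 12 and 22 of the 52 were among them, and 23 were among the 68. The median log2 difference of the 52 genes was then 0.47 and that of the 12 was 0.02. The covariate was made from the 12 genes themselves, so their own loss was fixed in advance. As a summed share, the covariate mostly followed the 3 genes of very high level. It also ran close to the setting, as all 10 KFC but only 2 of 12 KF libraries held a high share. Losses among the other genes therefore cannot be read.

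The 52 genes moved in a narrower band. Their mean level on the log2(CPM + 1) scale was 7.22 to 7.38 in control and 7.19 to 7.27 in LPS KFC males. It was 6.66 to 7.05 in control and 6.33 to 6.97 in LPS KF males. No KF library reached the lowest KFC library, which the choice of members favours. The means were 7.26 ± 0.05 (SD, n = 10) in KFC, 6.78 ± 0.21 (SD, n = 12) in KF, 6.93 ± 0.23 (SD, n = 12) in ISO and 6.93 ± 0.16 (SD, n = 12) in NF. The KFC libraries lay closest together of the 4 settings.

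**Figure D4:**
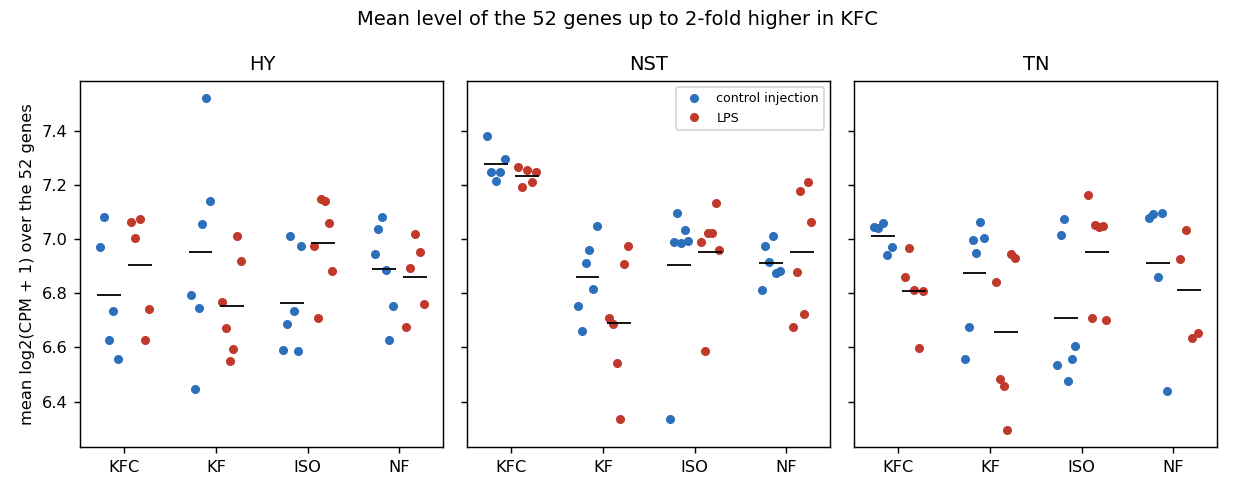
Mean level of the 52 genes that were higher in KFC by up to 2-fold (log2(CPM + 1)) in every library, by region and social setting, with control males in blue, LPS males in red and group means as lines. In NST the KFC libraries lie between 7.19 and 7.38 and the KF libraries between 6.33 and 7.05, while in HY and TN the settings overlap.

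Spread within groups differed for the 64 genes. The median SD on the log2 scale was 0.13 within KFC groups, 0.30 within KF groups and 0.29 within ISO and NF groups. Over all tested genes it was 0.30, 0.28 and 0.31. The SD was lower in KFC than in KF for 55 of the 64 genes (85.9%), against 45.5% of all genes. The test that chose the genes uses this spread, so the lower KFC value is a description. The genes were also of high level, with a mean CPM at a median percentile of 89.7 among tested genes.

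Members of each set varied together in ISO and NF males as well. These males are not in the KFC minus KF contrast, but they enter the fit that gave the calls, through its estimate of the spread and its filter. Over their 24 libraries, after group means were taken out, the median correlation between pairs was 0.86 among the 12 genes and 0.59 among the 52. Between the 12 and the 52 it was 0.07, and between the 64 and all other tested genes -0.01. Over the 22 KFC and KF libraries the medians were 0.73 among the 12 and 0.49 among the 52. Between the 12 and the 52 the median was -0.34 there, with 14.9% of pairs above 0. In KF, only LPS males 33 and 35 held a high share in the 12 genes. Their mean levels of the 52 genes, 6.54 and 6.33 on the log2(CPM + 1) scale, were the lowest of KF. The correlation without these libraries was not computed. The correlations share libraries and depth and are given as a description. Genes outside the sets were compared with each set's mean over the 24 ISO and NF libraries, with a limit of 0.8 on the correlation that was set after the values were seen. With the mean of the 12 genes 5 genes outside the 64 correlated above it, and all 5 were higher in KFC than in KF in log2 difference, without being called (median 2.44). With the mean of the 52 genes 77 did, all 77 with a difference above 0 (median 0.34). Genes that follow a set chosen as higher in KFC are apt to share its sign. They also vary together, so these counts are a description and not separate observations. None of the 52 correlated above the limit with the mean of the 12.

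ISO and NF males lay between KFC and KF. The median log2 difference of the 64 genes was 0.29 for KFC minus ISO and 0.32 for KFC minus NF. For KF minus ISO it was -0.18 and for KF minus NF -0.16. These comparisons share the groups that chose the genes. By edgeR no gene of 14386 passed in any of the 4 (0% called). The numbers at an unadjusted p under 0.05 were 2058, 1897, 1184 and 1007. With DESeq2 there were 19 calls for KFC minus ISO, 50 for KFC minus NF, 8 for KF minus ISO and 0 for KF minus NF. For the effect of LPS in ISO and NF males 341 genes were called (2.37%, of which 1.9% higher and 0.466% lower with LPS), none of them among the 68, a count too close to that background to say anything of the members. The log2 difference between LPS and control males was above 0 for all 12 genes more than 2-fold higher in KFC. It ran from 0.28 to 1.15 with a median of 0.70, and 1 of the 12 had an unadjusted p under 0.05 (edgeR). For the 52 genes the median was 0.05, with 38 above 0, and 48% of all tested genes were above 0. Members of each set varied together in these males, so the counts above 0 do not stand for separate observations.

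In the other regions of the KFC and KF males no gene passed. In HY 0 of 14420 genes were called (0%) by edgeR and by DESeq2, and 586 had an unadjusted p under 0.05. In TN 0 of 14598 were called (0%) by both, with 554. The 52 genes had a median log2 difference of -0.04 in HY, where 18 of 52 were above 0, and of 0.11 in TN, where 48 of 52 were. Over all genes 50.7% were above 0 in HY and 49.8% in TN. Of the 52 genes, 3 had an unadjusted p under 0.05 in TN and 0 in HY (edgeR). The 52 genes varied together in NST, so the counts above 0 are not read as separate observations. For the 12 genes the medians were 0.73 in HY and 0.15 in TN. The HY value goes with the single high library of KFC male 67. The mean level of the 12 genes in HY was 0.39 higher in KFC than in KF on the log2(CPM + 1) scale with that library and 0.09 higher without it. HY of control KF male 44 correlated with the HY median profile at only 0.924. The mean level of the 52 genes in HY differed by -0.0032 (KFC minus KF) with that library and by 0.05 without it.

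**Figure D5:**
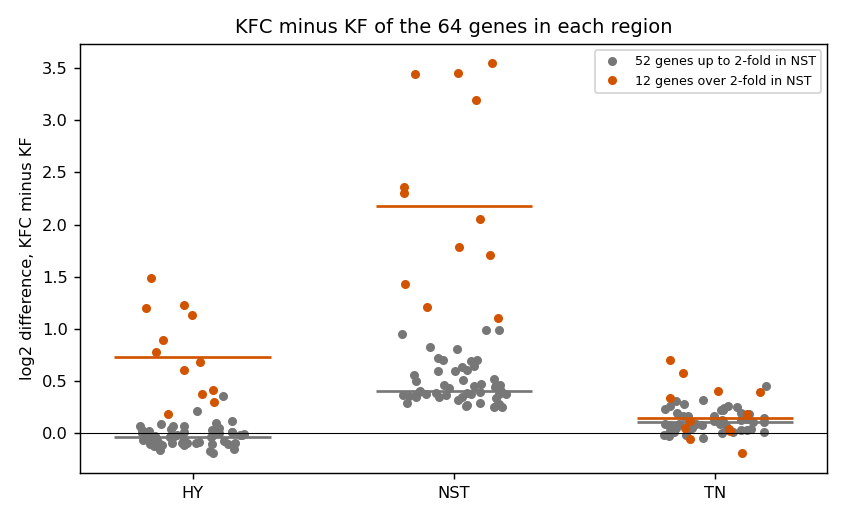
Log2 difference KFC minus KF of each of the 64 genes in HY, NST and TN, with the 12 genes more than 2-fold higher in NST in orange, the other 52 in grey and set medians as lines. The grey medians are 0.40 in NST, 0.11 in TN and -0.04 in HY, and the NST values are those that chose the genes.

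The difference between regions was tested within males. KFC minus KF was larger in NST than in HY for 47 of 14770 genes (0.318%), and smaller for none, in a fit with the male as a block over 45 males. Of these, 20 were among the 52 genes and 3 among the 12. Against TN, with 43 males, 11 of 14936 genes passed (0.0736%), 10 of them larger in NST, with 3 of the 52 and 2 of the 12. Without the male block no gene passed in either test. ENSTGUG00000006149 differed between NST and HY by 0.47 (edgeR adjusted p = 0.0269) but not detectably between NST and TN (0.29, adjusted p = 0.266). ENSTGUG00000008689 passed in neither, with 0.52 against HY (adjusted p = 0.0711) and 0.41 against TN (adjusted p = 0.0862). Without male 34 the count against HY was 109, and against TN it was 2 without male 62 and 17 without male 31. The NST values that chose the members enter these tests. HY of control KF male 44, which correlated with the HY median profile at only 0.924, stayed in the test against HY. Its mean level of the 52 genes, 7.52 on the log2(CPM + 1) scale, was the highest of the HY libraries. A fit between regions without it was not run.

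Levels in ISO and NF males, which are not in the KFC minus KF contrast, placed the sets differently among regions. Against HY, 29 of the 52 genes were higher in NST and 2 lower, where 19.8% of all 14451 genes were higher and 21% lower. Their median log2 difference was 0.13. Against TN, 6 of the 52 were higher and 5 lower, where 18.3% and 17.9% of all 14576 genes were, with a median of 0.03. The 12 genes had a median of 0.93 against HY, with 4 higher, and of -0.89 against TN, with 7 lower and none higher. Their order of levels was therefore HY, NST and TN from low to high in the medians. The place of NST is an average over unlike libraries. The share of reads in the 12 genes was at least 0.5% in 6 of 12 ISO and 5 of 12 NF libraries of NST, and low in the others. Members of each set varied together in these males, so the counts of genes higher or lower between regions do not stand for separate observations.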

How the data were processed

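Polyadenylated RNA was sequenced after NEBNext Ultra library preparation, per the labels' protocols. HISAT2 and HTSeq 0.6.1 were used, per the submitters' processing notes. The sources used here do not give the genome build, the annotation or the use of strand. The deposited values are raw read counts for 18618 gene identifiers, of which 0 matched a RefSeq table of zebra finch genes, so the gene lists and cell type markers set out for this tissue, and sequences, could not be used. The labels write the control injection as S, the design text as C. Counts were fitted with edgeR 4.0.16 in R 4.3.3 (filterByExpr with minimum count 10 and minimum total 15, TMM, robust quasi-likelihood, 8 group means per region). SE values come from the log2 change and its F statistic. The named genes were those of the 2 lowest p in each direction with a mean of at least 1 CPM. Members, sets and lists were chosen with earlier results of these data known. Region comparisons were blocked by male. The design text has the 3 regions dissected from the same males, and a number that recurs across regions was taken to mark a male, which the labels do not state. Deviations of libraries with the same number correlated at a median r of 0.548 (NST with HY, over 0.1 for 42 of 45 males) and 0.502 (NST with TN, 42 of 43). Alternatives used DESeq2 1.42.0 and sva 3.50.0. The fits were tested on simulated data. For KFC minus KF in NST, 53 of 100 genes changed by 0.5 on the log2 scale were recovered, and 87 of 100 changed by 1. There were 4 false calls. Differences of these sizes can therefore be missed. Each simulated gene varied on its own, whereas the called genes varied together. The number of false calls therefore does not carry over to the measured data. Among 231 pairs of the 22 libraries the lowest chi-square per gene was 9.06, so none were merged. The spread between males (biological coefficient of variation 0.272 in NST), rather than counting error, limited precision for all but low counts. Plots were made in Python 3.11.15 (matplotlib 3.10.9).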

Additional observations from a re-analysis of the deposited data

Results flagged for a closer look

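The level of ENSTGUG00000008689 in control KFC male 68, at 136 CPM, stood apart from the other 4 control KFC males, which lay between 163 and 174 CPM. It was the only such sample among 36 groups of values checked, where chance gives about 1 in 20, and it was still above the highest KF library at 134 CPM. The KFC minus KF difference itself differed between NST and HY for 47 genes and between NST and TN for 11 genes (edgeR with the male as a block, adjusted p under 0.05).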

How the results depend on the processing

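The 68 genes called for KFC minus KF in NST became 104 in a fit to the 22 KFC and KF libraries alone, of which 62 were shared, and 133 with DESeq2, of which 67 were shared. RLE scaling gave 67, no filter on low counts 62, a filter of at least 1 CPM in 11 libraries 81, an additive model 101, leaving out NF males 3 and 4 gave 78, and 2 surrogate variables, added after the data were seen, gave 76. Leaving out each library in turn gave 0 to 117, within 1.5 times the count in 7 of 22 omissions, below in 14 and above in 1. Within injections, the 22 libraries alone gave 14 calls in control males and 1 in LPS males, DESeq2 gave 15 and 15, and single-library omissions gave 0 to 1 in each. DESeq2 gave 19 calls for KFC minus ISO, 50 for KFC minus NF and 8 for KF minus ISO, each 0 with edgeR. No replicate block gave 0 calls in place of 47 for NST against HY and 0 in place of 11 for NST against TN, and it kept the NST level differences within 1.5 times (4221 against 5905 for HY, 3703 against 5275 for TN). Leaving out male 62, 31 or 34 gave 37 to 109 against HY and 2 to 17 against TN. Male 44 was not left out of these fits between regions. No sign of a named gene's difference turned under any of these settings, and adjusted p-values reached 0.0562 for ENSTGUG00000018571 and 0.0907 for ENSTGUG00000006485. With the level of the 12 genes as a covariate, also added later, 61 genes passed. ENSTGUG00000018571, ENSTGUG00000006485 and ENSTGUG00000006149 did not pass in that fit (edgeR adjusted p = 0.623, 0.263 and 0.0757), whose covariate ran close to the setting. The cause of these changes was not tested. Omissions in HY and TN gave 0 calls throughout, with or without HY of KF male 44.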
